A study of Mus musculus with 27 samples.

Results

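The transcripts described here encode the main glucose transporter and the enzymes that carry glucose through glycolysis to lactate: Slc2a1, Hk2, Gpi1, Pfkl, Aldoa, Gapdh, Pgk1, Pgam1, Pkm and Ldha. These 10 genes were taken by name from the 50559 rows of the count table, with earlier results of these data known. All 10 were among the 13614 genes with enough counts to be tested. They were followed in bone marrow-derived macrophages of age-matched female C57BL/6 mice, 3 to 4 months old, that were either WT or TRAP1 KO. TRAP1 is the mitochondrial chaperone of the HSP90 family. Cells were unpolarized (labelled M0, here Mφ) or polarized to M2 by 24 h of IL-4 (10 ng/ml). They were then kept for 48 h in control medium (DMEM) or in medium conditioned by cells of malignant peripheral nerve sheath tumor (MPNST-CM), a sarcoma of the nerve sheath, and RNA was read by 3′ sequencing of polyA RNA. The 8 groups are therefore WT and TRAP1 KO Mφ and WT and TRAP1 KO M2, each in either medium, with 3 libraries of batch 1 per group. The knockout allele and the number of animals behind the libraries are not given in the sources used here, so every spread below is that between libraries and may be technical.

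Total counts ranged from 7037684 to 9089792 in the 24 libraries of batch 1. Values are given as CPM, the count relative to the total of the library, after TMM scaling, which corrects these totals for the composition of each library. Trap1 ranged from 10.4 to 18.8 CPM over the 12 WT libraries and had 0 counts in all 12 from TRAP1 KO. Xist, which is transcribed from the inactive X chromosome of female cells, ranged from 254 to 504 CPM over WT and reached at most 1.14 CPM over TRAP1 KO libraries. The Y-linked genes Ddx3y, Eif2s3y, Kdm5d and Uty had at most 2 counts in any of these libraries, so genotype and Xist level cannot be told apart in batch 1. Batch 2 adds replicate 4 to WT Mφ in control medium and to both media of TRAP1 KO M2. Trap1 had 252 counts in its WT library and 2 and 0 in those labelled TRAP1 KO M2 in control medium and in MPNST-CM, and both of the latter had Xist, at 404 and 308 CPM. They also resembled another group more than their own across the genes tested. The library labelled TRAP1 KO M2 in control medium had a Spearman's rho of 0.914 with the mean of its own group, whereas its rho with the tumor medium group of TRAP1 KO Mφ was 0.969, and that labelled TRAP1 KO M2 in MPNST-CM had 0.949 and, with WT M2 in control medium, 0.983. All 24 libraries of batch 1 were closest to their own group. The results below use batch 1, and calls of the 10 genes that were lost when all 27 libraries were fitted are given beside them. Within groups, 6 libraries stood apart. These were replicate 1 of all 4 Mφ groups and of WT M2 in MPNST-CM, and replicate 2 of TRAP1 KO M2 in control medium. The chi-square per degree of freedom between their counts and those of the other libraries of their group was 10.8 to 37.4, against 2.11 to 6.71 for the remaining pairs. Each comparison is also given for the 18 libraries left without them, a choice made after seeing the data. It leaves 2 libraries in each of these groups and removes those least like the rest. The spread is thereby lowered, so adjusted p-values from the 18 libraries can be too small. Macrophage markers (Adgre1, Csf1r, Cd68, Itgam, Mertk, Lyz2, Fcgr1 and Cd14) summed to between 8379 and 12859 CPM, against at most 0.789 CPM for lymphocyte, 4.65 for fibroblast, 8.26 for Schwann cell, 13.2 for dendritic cell and 19.98 for neutrophil and progenitor markers, and Ngfr was at 0 in all 24 libraries.

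Glucose enters the cell through transporters such as GLUT1, the product of Slc2a1, and is trapped by phosphorylation by hexokinase. Gpi1, Pfkl and Aldoa encode the steps that convert the hexose phosphate to triose phosphates, and Gapdh, Pgk1, Pgam1 and Pkm those that yield ATP and pyruvate. Lactate dehydrogenase A then reduces pyruvate to lactate and returns NAD+ to the pathway. In macrophages, inflammatory stimuli are known for a shift toward glycolysis and lactate, whereas IL-4 is best known for oxidative metabolism. Many of these genes are textbook targets of the hypoxia-inducible factor HIF-1, which recognizes the core letters ACGTG or GCGTG, and of Myc, which recognizes the E-box CACGTG.

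The promoter windows of 5 genes are shown because results below turn on these transcripts, and their windows hold from 1 to 7 matches of the motifs searched. RefSeq (GRCm38.p6) gave 14 windows for the 10 genes, each from 250 bases before to 50 bases after a transcription start site. ACGTG or GCGTG on either strand was found in 11 of these windows, and 9 of the 10 genes had a match in at least 1 of their windows, with Gpi1 as the exception. ACGTG was found for 8 genes. Aldoa windows 2 and 3 overlap and hold the same match, which counts in both. Among all 32851 windows of the same length, 43.8% held either motif and 19.6% held ACGTG, which are shares of windows and not of genes. A match is a string of letters and not a site shown to be bound. In the sequences, capitals mark ACGTG or GCGTG, or CACGT or CACGC where the motif lies on the other strand. Positions count from the start site, with -1 as the base before it. The Slc2a1 window is chr4:119108495-119108794 on the plus strand, with matches that begin at -61 and -36. That of Hk2 is chr6:82774405-82774704 on the minus strand, with matches at -226 and -52. The Pfkl window, chr10:78009758-78010057 on the minus strand, has a GCGTG at -99. The Pgk1 window is chrX:106186850-106187149 on the plus strand, with matches at -150 and -131. For Ldha, of which RefSeq gives 2 windows, the one shown is chr7:46845554-46845853 on the plus strand, with 7 matches. Of these, 4 overlap as the pair of strands of 2 E-boxes CACGTG, which begin at -145 and -48.
Slc2a1: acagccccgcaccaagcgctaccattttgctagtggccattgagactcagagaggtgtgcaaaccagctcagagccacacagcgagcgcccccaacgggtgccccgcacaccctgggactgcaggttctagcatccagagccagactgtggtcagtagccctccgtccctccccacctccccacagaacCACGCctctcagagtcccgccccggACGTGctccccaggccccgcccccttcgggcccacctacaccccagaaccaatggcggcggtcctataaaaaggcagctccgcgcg
Hk2: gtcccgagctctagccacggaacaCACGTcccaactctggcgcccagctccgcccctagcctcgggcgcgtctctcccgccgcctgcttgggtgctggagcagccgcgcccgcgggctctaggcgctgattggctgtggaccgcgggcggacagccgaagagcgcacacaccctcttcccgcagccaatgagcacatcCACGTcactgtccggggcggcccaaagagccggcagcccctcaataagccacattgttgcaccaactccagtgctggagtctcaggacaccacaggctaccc
Pfkl: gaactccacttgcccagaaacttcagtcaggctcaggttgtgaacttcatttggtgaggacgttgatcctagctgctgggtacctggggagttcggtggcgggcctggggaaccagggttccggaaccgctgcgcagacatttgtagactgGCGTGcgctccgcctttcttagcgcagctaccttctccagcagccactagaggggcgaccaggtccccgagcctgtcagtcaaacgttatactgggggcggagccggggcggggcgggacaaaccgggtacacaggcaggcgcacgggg
Pgk1: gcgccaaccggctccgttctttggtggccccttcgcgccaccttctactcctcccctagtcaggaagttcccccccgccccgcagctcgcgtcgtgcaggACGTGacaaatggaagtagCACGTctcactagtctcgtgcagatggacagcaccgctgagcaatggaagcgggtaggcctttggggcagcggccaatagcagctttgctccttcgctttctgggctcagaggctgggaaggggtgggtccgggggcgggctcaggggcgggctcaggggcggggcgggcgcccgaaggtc
Ldha: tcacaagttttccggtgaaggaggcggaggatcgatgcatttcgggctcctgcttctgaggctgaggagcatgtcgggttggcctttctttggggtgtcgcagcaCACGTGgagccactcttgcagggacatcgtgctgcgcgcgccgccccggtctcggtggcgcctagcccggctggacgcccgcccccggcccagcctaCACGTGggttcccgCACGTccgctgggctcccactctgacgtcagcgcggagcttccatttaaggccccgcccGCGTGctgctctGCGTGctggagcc

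At the entry of the pathway, the transcripts of the transporter and of hexokinase 2 were highest in WT M2 in control medium. Slc2a1 had 132, 132 and 139 CPM in these libraries, against 38.9, 49.1 and 45.7 in WT Mφ in the same medium. The order of its group means ran from TRAP1 KO Mφ in control medium (41.9 ± 4.44, SD, n = 3) through WT Mφ in control medium, WT Mφ in MPNST-CM (57.4 ± 9.20), TRAP1 KO M2 in MPNST-CM (74.5 ± 2.94), TRAP1 KO Mφ in MPNST-CM (89.1 ± 8.89), WT M2 in MPNST-CM (107 ± 6.32) and TRAP1 KO M2 in control medium (119 ± 2.83) to WT M2 in control medium (134 ± 3.94). Only the lowest 2 groups in this order overlapped with their neighbour. Hk2, which encodes the inducible hexokinase bound to mitochondria, had 134, 137 and 139.7 CPM in WT M2 in control medium and 86.9, 99.1 and 89.2 in the TRAP1 KO counterpart. It was lowest in TRAP1 KO M2 in MPNST-CM, at 49.5, 47.7 and 50.6 CPM, and the 5 groups between these extremes overlapped with their neighbours, from 56.1 ± 4.31 to 75.5 ± 8.72 CPM.

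In the steps from hexose to triose phosphates the highest group was TRAP1 KO Mφ in MPNST-CM. Gpi1, glucose-6-phosphate isomerase, had 236, 261 and 252 CPM there and between 114 and 200.1 CPM in every other library. Pfkl, the liver-type subunit of phosphofructokinase, the committed step of the pathway, had 51.9, 50.6 and 49.03 CPM in the same group and 38.2, 32.3 and 37.7 in TRAP1 KO M2 in MPNST-CM. Its 4 groups in control medium overlapped in the order of their means, from 15.04 ± 0.828 to 20.3 ± 2.40 CPM, below both WT groups in MPNST-CM. Aldoa, fructose-bisphosphate aldolase A, had 839.7, 775 and 754 CPM in this group and 419.9, 399.7 and 452 in its control medium counterpart. For Gpi1 and for Aldoa, 4 to 5 groups in the middle of the order overlapped with their neighbours, among them all M2 groups except TRAP1 KO M2 in control medium for Aldoa.

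Among the enzymes of the second stage, Pkm and Pgk1 differed in which genotype was highest. Pkm, pyruvate kinase M, had 1491, 1104 and 1215 CPM in WT Mφ in MPNST-CM, against 1019, 1001 and 888 in the TRAP1 KO counterpart and 410.1, 402 and 421 in TRAP1 KO Mφ in control medium, its lowest group. Pgk1, the X-linked phosphoglycerate kinase, peaked in the MPNST-CM group of TRAP1 KO Mφ (30.3, 33.9 and 31.97 CPM) and was lowest in TRAP1 KO Mφ in control medium (13.3, 14.4 and 13.5). Pgam1, phosphoglycerate mutase, had the narrowest range of group means, from 19.04 ± 2.19 CPM in TRAP1 KO Mφ in control medium to 34.2 ± 2.03 in WT M2 in MPNST-CM, and only both Mφ groups in control medium lay below the rest without overlap. Ldha had 91.5, 94.9 and 87.9 CPM in WT Mφ in control medium and 172, 165 and 173 in MPNST-CM. In TRAP1 KO Mφ it had 79.5, 91.8 and 74.8 CPM and then 182, 225 and 208, so that no library in control medium reached those in MPNST-CM.

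Gapdh, the dehydrogenase that opens the second stage, had only 9 to 78 counts per library (1.21 to 9.03 CPM), and the enolase gene Eno1, named after its values were seen, had group means between 2.03 and 5.82 CPM. Rows of copies named after a gene with -ps or -rs numbered 3 for Gapdh, 3 for Pgk1, 3 for Ldha, 2 for Aldoa and 2 for Pgam1. Copies under other names were not searched for, and reads with a low mapping quality were discarded before counting. The highest of the rows so named was Aldoa-ps4 at 4.76 CPM, and whether copies took or removed reads of the genes themselves was not tested. Gapdh is therefore given with the others, but its level and changes are uncertain, and no levels are compared between genes.

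**Figure D1:**
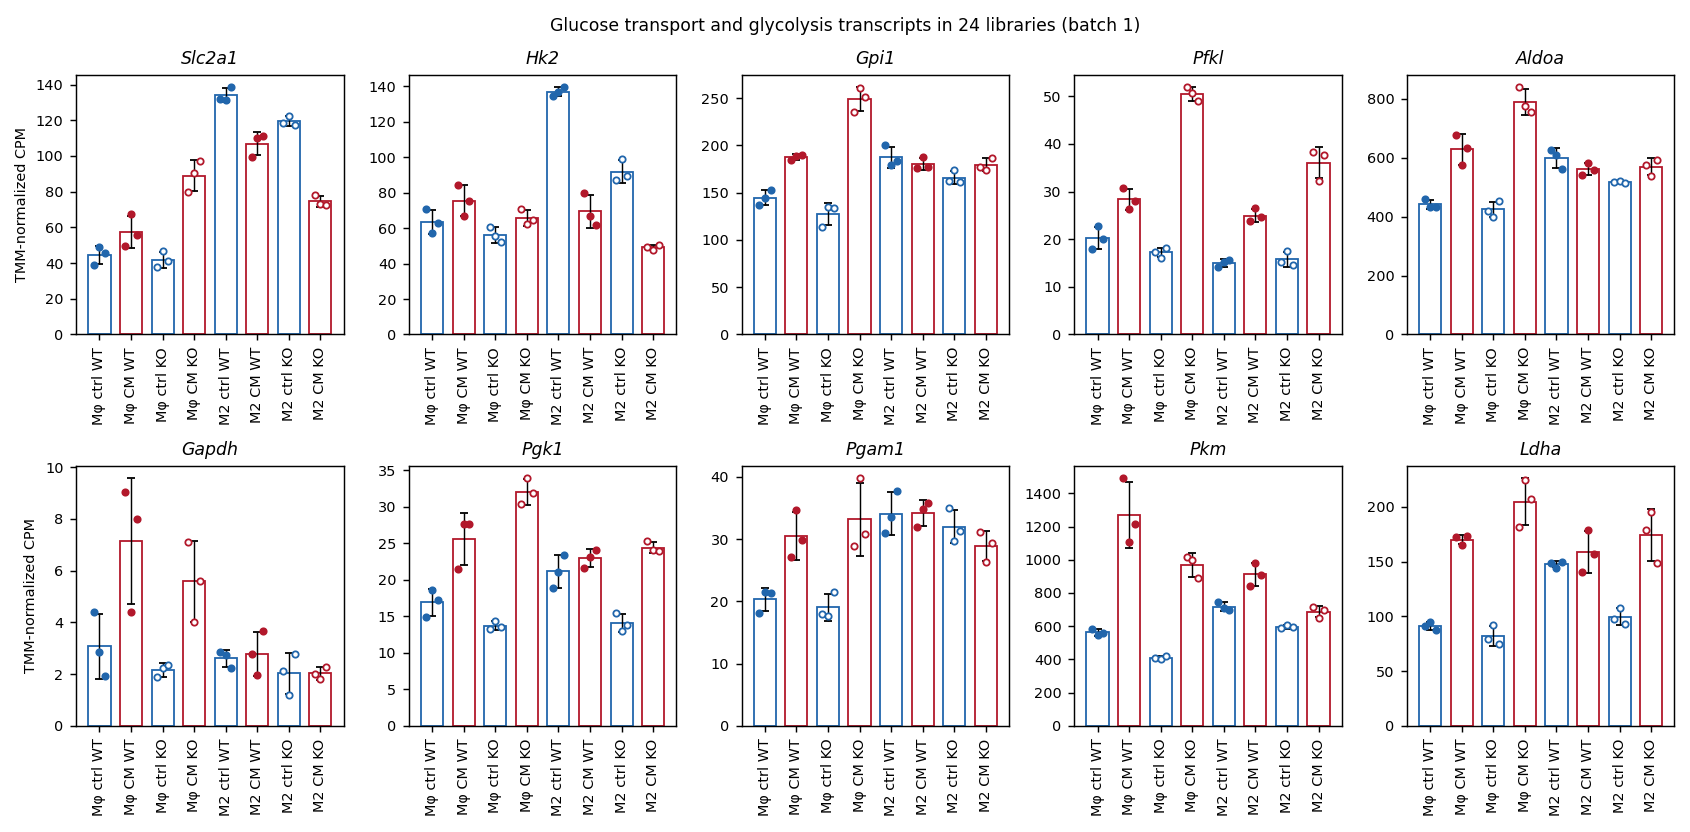
TMM-normalized CPM of the 10 transcripts in the 24 libraries of batch 1, by group, with a separate y axis from 0 for each gene. Bars are means of 3 libraries with SD, points are libraries, blue is control medium (ctrl), red is MPNST-CM (CM), filled points are WT and open points TRAP1 KO. Slc2a1 and Hk2 are highest in WT M2 in control medium, and Pfkl, Gpi1, Aldoa, Pgk1 and Ldha in TRAP1 KO Mφ in MPNST-CM.

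To ask how the tumor medium changed the pathway, each cell state was compared between MPNST-CM and control medium. In WT Mφ, 9 of the 10 transcripts rose, and in TRAP1 KO Mφ the same 9 rose, with Hk2 as the exception in both. In all genes tested, 21.2% passed the test in WT and 32.9% in TRAP1 KO (edgeR's quasi-likelihood test, adjusted p under 0.05), of which 11.3% and 14.8% were higher in MPNST-CM. The median log2 fold change of the 10 was 0.55 in WT and 1.16 in TRAP1 KO, against -0.02 and -0.04 over all genes. The largest increase in WT Mφ besides Gapdh was that of Pkm, by a fold of 2.26 (log2 fold change 1.18 ± 0.09, SE, adjusted p = 1.56e-10), followed by Ldha with 1.86 (0.90 ± 0.10, 3.82e-07). Pgk1, Pgam1, Aldoa, Pfkl, Gpi1 and Slc2a1 rose by folds between 1.29 and 1.51. In TRAP1 KO Mφ, Pfkl rose by a fold of 2.93 (1.55 ± 0.11, adjusted p = 7.41e-12), Ldha by 2.50 (1.32 ± 0.10, 8.12e-11), Pkm by 2.36, Pgk1 by 2.34, Slc2a1 by 2.13 and Gpi1 by 1.956. Gapdh had log2 fold changes of 1.22 ± 0.31 in WT and 1.37 ± 0.33 in TRAP1 KO, and its WT libraries overlapped (4.42, 2.87 and 1.94 against 9.03, 4.38 and 7.98 CPM). In WT Mφ the libraries of 8 members did not overlap between media, and in TRAP1 KO Mφ those of all 10, against 33.3% and 43.1% of all genes. None of the 10 passed as lower in Mφ, against 9.96% and 18.1% of all genes. Without the 6 libraries that stood apart, a choice that lowers the spread, all 10 passed as higher in both genotypes.

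Hk2 had log2 fold changes of 0.25 ± 0.10 in WT Mφ (adjusted p = 0.0860) and 0.23 ± 0.10 in TRAP1 KO Mφ (adjusted p = 0.0881). It passed the threshold in WT when any 1 of 8 libraries was left out (replicate 2 of WT Mφ in MPNST-CM, 1 of WT Mφ in control medium, 1 of WT M2 in MPNST-CM, 2 and 4 of WT M2 in control medium or any of TRAP1 KO M2 in control medium, adjusted p from 0.0274 to 0.0499). In TRAP1 KO Mφ it passed without any 1 of 7 (replicate 1 of WT M2 in MPNST-CM or any M2 library in control medium, 0.0239 to 0.0402). The rise of Slc2a1 in WT Mφ (0.37 ± 0.11, adjusted p = 0.0153) was lost without replicate 2 of WT Mφ in MPNST-CM (0.148), without replicate 1 of WT Mφ in control medium (0.104) and in the fit of all 27 libraries (0.0762, against 0.115 with the compared groups alone), in which Pfkl in WT Mφ was also lost (0.424). Without the libraries that stood apart, Hk2 passed in WT Mφ (0.25, adjusted p = 0.0241) and in TRAP1 KO Mφ (0.22, 0.0482). Summed proliferation markers (Mki67, Top2a, Ccnb1, Cdk1 and Birc5) were 872 to 1187 CPM in WT Mφ in control medium and 1026 to 1459.8 in MPNST-CM, but fell from 394 to 509.8 CPM to 101 to 125 CPM in TRAP1 KO Mφ, where all 5 passed as lower. Their part in these results was not tested, and in bulk RNA more RNA per cell and more cells of a state cannot be told apart.

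In M2 cells the members that passed moved in both directions, and 6 in WT and 5 in TRAP1 KO did not pass. WT M2 had Pfkl (log2 fold change 0.73 ± 0.11, adjusted p = 1.93e-05) and Pkm (0.35 ± 0.09, 0.00347) higher and Slc2a1 and Hk2 lower, and in TRAP1 KO M2, Pfkl, Pgk1 and Ldha rose while Slc2a1 and Hk2 fell. These were 4 and 5 of the 10, against 24.5% and 36.8% of all genes tested, with 11.2% and 16.7% passing as higher and 13.3% and 20.2% as lower. The libraries of 4 and 7 members did not overlap between media, against 39.3% and 49.2% of all genes. Hk2 fell from 134, 137 and 139.7 to 79.6, 66.6 and 62.0 CPM in WT M2, a log2 fold change of -0.98 ± 0.10 (adjusted p = 2.64e-08). In TRAP1 KO M2 it went from 86.9, 99.1 and 89.2 to 49.5, 47.7 and 50.6 CPM (-0.90 ± 0.10, adjusted p = 6.82e-08), and the libraries of both media were apart in each genotype. Slc2a1 changed by -0.33 ± 0.10 in WT M2 and by -0.68 ± 0.10 in TRAP1 KO M2 (adjusted p = 0.0208 and 7.13e-06). In TRAP1 KO M2, Pfkl increased by a fold of 2.28 (1.19 ± 0.11, adjusted p = 1.77e-09), Ldha by 1.75 and Pgk1 by 1.74. Gpi1, Aldoa, Gapdh and Pgam1 passed in neither genotype, with log2 fold changes between -0.15 and 0.13.

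The fall of Slc2a1 in WT M2 was lost without replicate 1 of WT M2 in MPNST-CM or without any 1 of the 6 M2 libraries in control medium (adjusted p from 0.0659 to 0.233), without the filter on low counts (0.1003) with total counts as the scale (0.250), which left 2 members higher and 1 lower, and with all 27 libraries (-0.27, 0.218). Pkm in TRAP1 KO M2 (0.21 ± 0.09, adjusted p = 0.0646) passed without replicate 1 or 2 of WT Mφ in MPNST-CM or 1 of WT M2 in MPNST-CM (0.0245 to 0.0429), and with total counts 6 members were higher and 2 lower in TRAP1 KO M2. With all 27 libraries, Pfkl was lost in both genotypes of M2 (adjusted p = 0.0773 and 0.109). In the 18 libraries, Ldha also passed as higher in WT M2 (0.25, adjusted p = 0.0132) and Pkm in TRAP1 KO M2 (0.21, 0.00161). Proliferation markers moved the opposite way in the genotypes, from 295 to 327 up to 535 to 709 CPM in WT M2 and from 354 to 374 down to 136 to 139 CPM in TRAP1 KO M2, and their part was not tested.

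**Figure D2:**
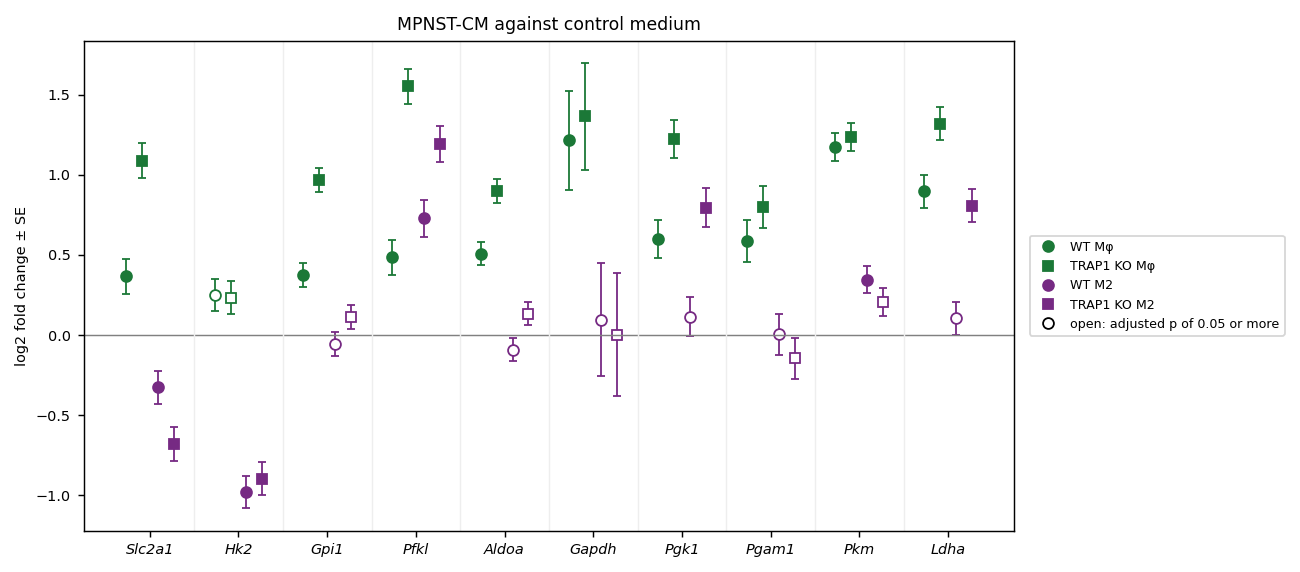
Log2 fold change of MPNST-CM against control medium for each transcript, with SE from the fit of 24 libraries, in Mφ (green) and M2 (purple), WT (circles) and TRAP1 KO (squares). Filled symbols passed the test. The green symbols of 9 transcripts are filled and above 0, and the purple symbols of Slc2a1 and Hk2 are filled and below 0.

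Whether cells already polarized with IL-4 answered the medium differently was tested in WT as the difference between the change in M2 and that in Mφ. For 7 of the 10 transcripts this difference passed and was negative, against 12.1% of all genes passing and 6.91% passing as negative. It was largest for Hk2 (-1.23 ± 0.14 on the log2 scale, adjusted p = 1.18e-06), then Pkm (-0.83 ± 0.12, 2.99e-05), Ldha (-0.79 ± 0.15, 0.00044), Slc2a1 (-0.69 ± 0.15), Aldoa (-0.60 ± 0.10), Pgam1 (-0.58 ± 0.18, 0.0340) and Gpi1 (-0.43 ± 0.11). Pfkl had 0.24 ± 0.16 (adjusted p = 0.372). With all 27 libraries, 3 of the 7 remained, and 4 with batch as a covariate. In the 18 libraries 6 remained, without Pgam1 (adjusted p = 0.0519). Gpi1 and Pgam1 were both lost without the filter on low counts (adjusted p = 0.103 and 0.0905) and with total counts (0.0998 and 0.142). Pgam1 was also lost with the compared groups alone (0.0733). Pgam1 was lost when any 1 of 9 libraries was left out (replicates 2 and 3 of WT Mφ in MPNST-CM, 1 of WT Mφ in control medium, 1 and 2 of WT M2 in MPNST-CM, 1 and 3 of TRAP1 KO M2 and 3 and 4 of WT M2 in control medium, adjusted p up to 0.133), Gpi1 without replicate 2 of WT M2 in control medium (0.0597), and Gapdh or Pgk1 were gained without replicate 2 (0.0478) or 1 (0.0184) of WT Mφ in MPNST-CM, Gapdh also without replicate 1 of WT Mφ in control medium (0.04999).

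The role of TRAP1 was then examined by comparing TRAP1 KO with WT in each cell state and medium. In control medium, Pkm alone passed in Mφ and Hk2, Pgk1, Pkm and Ldha passed in M2, all lower in TRAP1 KO, against 16.6% and 16.4% of all genes, with 7.97% and 7.87% passing as lower and 8.64% and 8.56% as higher. The libraries of 3 members in Mφ and 7 in M2 did not overlap, against 31.7% and 37.5% of all genes. Pkm was 582, 545 and 560.3 CPM in WT Mφ and 410.1, 402 and 421 in TRAP1 KO Mφ, without overlap (log2 fold change -0.45 ± 0.09, adjusted p = 0.000369). In M2, Hk2 differed by -0.58 ± 0.10 (adjusted p = 0.000165), Ldha by -0.57 ± 0.10 (0.000292), Pgk1 by -0.59 ± 0.12 (0.00135) and Pkm by -0.27 ± 0.09 (0.0326). Ldha had 149, 144 and 150.1 CPM in WT M2 and 97.6, 108 and 92.8 in TRAP1 KO M2. Among the members that did not pass, all 9 in Mφ and 5 of 6 in M2 also had negative log2 fold changes, from -0.50 to -0.06 and from -0.37 to 0.07. With total counts as the scale, 5 members were lower in Mφ, and DESeq2 gave 2 in Mφ and 6 in M2. Pkm in M2 was lost without replicate 1 or 3 of TRAP1 KO M2 or any WT M2 library in control medium (adjusted p from 0.0514 to 0.110) and with all 27 libraries (-0.19, 0.259), where Pgk1 in M2 was also lost once batch was a covariate (0.0527). Aldoa in M2 (-0.21 ± 0.07, adjusted p = 0.0532) was gained without 1 of 5 libraries (replicate 1 of TRAP1 KO Mφ, 1 or 2 of WT Mφ or 1 of WT M2 in MPNST-CM, or 4 of WT M2 in control medium, 0.0351 to 0.0469). Pkm alone again passed in Mφ in the 18 libraries, and in M2 the 4 were joined by Gpi1 (-0.21, adjusted p = 0.0120) and Aldoa (-0.21, 0.00462).

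After exposure to MPNST-CM, TRAP1 KO Mφ exceeded WT Mφ for 6 transcripts, which had not passed in control medium, and Pkm was again lower. Of all genes, 38.2% passed, 19.1% as higher and 19.2% as lower. The libraries of 7 members did not overlap between genotypes, against 46.1% of all genes. Pfkl was 1.78-fold higher (log2 fold change 0.83 ± 0.10, adjusted p = 3.54e-07), with 51.9, 50.6 and 49.03 CPM against 30.8, 26.3 and 27.9. Slc2a1 was 1.55-fold higher (0.63 ± 0.11, adjusted p = 2.61e-05), with 79.6, 90.2 and 97.3 against 49.3, 67.4 and 55.5 CPM, and Gpi1 (0.41 ± 0.08) and Aldoa (0.33 ± 0.07) were also higher without overlap. Pkm went the other way (-0.39 ± 0.09, adjusted p = 0.000679). The calls for Pgk1 (0.32 ± 0.11, adjusted p = 0.0258) and Ldha (0.27 ± 0.10, 0.0404) were weak. Pgk1 was lost without any 1 of 9 libraries (adjusted p up to 0.176) and Ldha without any 1 of 12 (up to 0.203), namely replicates 2 and 3 of TRAP1 KO Mφ and 1 of WT Mφ and WT M2 in MPNST-CM, 2 and 3 of TRAP1 KO M2 and any of WT M2 in control medium for both, and for Ldha also 2 and 3 of WT Mφ in MPNST-CM and 1 of TRAP1 KO M2 in control medium. Both were also lost with all 27 libraries (adjusted p = 0.179 for Pgk1 and 0.236 for Ldha), DESeq2 (0.0503 and 0.0638), the compared groups alone (0.149 and 0.125), no filter (0.1196 and 0.0516) and total counts (0.125 and 0.191). Of the 2 only Pgk1 was lost in the 18 libraries (0.1399). Total counts gave 4 higher and 2 lower, the second being Hk2 (adjusted p = 0.0242), which also passed as lower without replicate 2 of WT Mφ in MPNST-CM (0.0489).

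In M2 in MPNST-CM, Pfkl was again higher in TRAP1 KO (0.53 ± 0.11, adjusted p = 0.000307), while Slc2a1 (-0.52 ± 0.10, 0.000287), Hk2 (-0.49 ± 0.10, 0.000463) and Pkm (-0.41 ± 0.09, 0.000498) were lower. These were 4 of the 10, against 34% of all genes, 17.2% as higher and 16.8% as lower, and the libraries of 5 did not overlap, against 46.5%. Slc2a1 had 99.7, 110.3 and 111 CPM in WT M2 and 77.9, 73.0 and 72.6 in TRAP1 KO M2, the reverse of Mφ, and the difference between these genotype effects was not tested. Gpi1, Aldoa, Gapdh, Pgk1, Pgam1 and Ldha did not pass, with log2 fold changes between -0.46 and 0.13. With all 27 libraries, Hk2 and Pfkl were lost (adjusted p = 0.147 and 0.490), and Pgam1 also passed as lower in the 18 libraries (-0.37, 0.00845). The Xist difference in batch 1 runs through all 4 genotype comparisons, and for the X-linked Pgk1 as for the others genotype and Xist level cannot be told apart. Proliferation markers were lower in TRAP1 KO in 3 of the 4, with 5 of 5 passing in both MPNST-CM comparisons, 4 of 5 in Mφ in control medium and 0 in M2 in control medium. Their part was not tested.

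**Figure D3:**
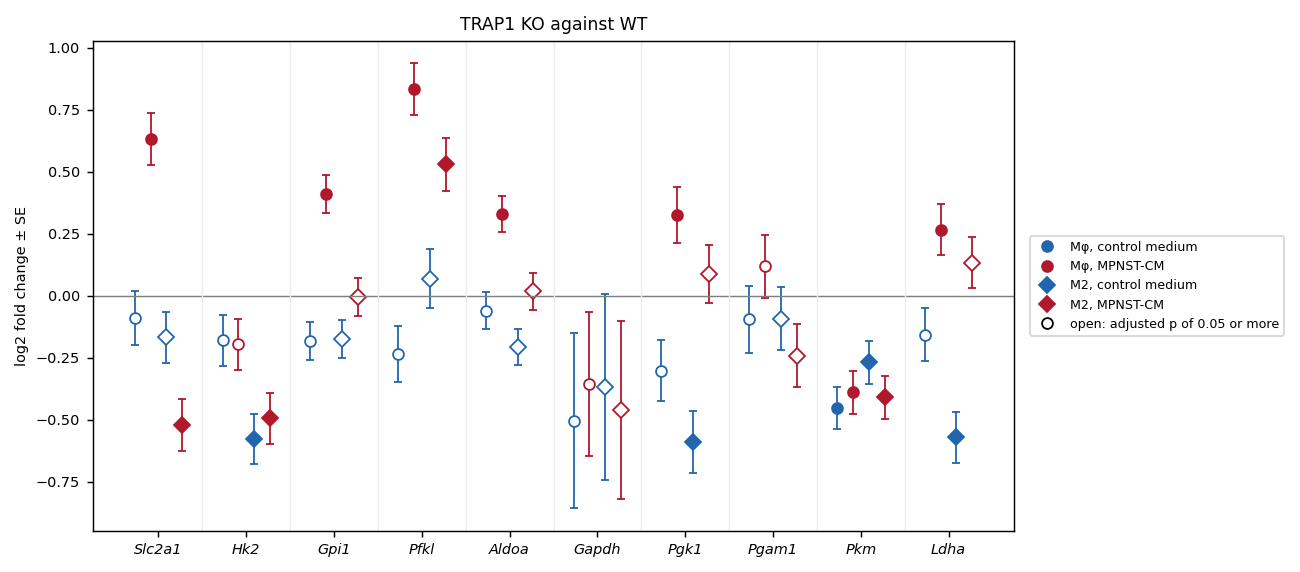
Log2 fold change of TRAP1 KO against WT for each transcript, with SE from the fit of 24 libraries, in Mφ (circles) and M2 (diamonds), in control medium (blue) and MPNST-CM (red). Filled symbols passed the test. Pkm lies below 0 in all 4 comparisons, and Pfkl in MPNST-CM lies above 0 in Mφ and M2.

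Whether TRAP1 KO cells answered MPNST-CM differently from WT cells was tested by the genotype-by-medium interaction. In Mφ it was positive and passed for 6 of the 10 transcripts, against 19.7% of all genes passing and 8.17% passing as positive. The difference of log2 changes was 1.07 ± 0.15 for Pfkl (adjusted p = 7.63e-06), 0.72 ± 0.15 for Slc2a1 (0.000862), 0.63 ± 0.17 for Pgk1 (0.00826), 0.59 ± 0.11 for Gpi1 (0.000177), 0.42 ± 0.15 for Ldha (0.0413) and 0.39 ± 0.10 for Aldoa (0.00740). Pkm, whose level was lower in TRAP1 KO in both media, had 0.06 ± 0.12 (adjusted p = 0.800), and Hk2 -0.02 ± 0.14. In M2, Ldha (0.71 ± 0.15, adjusted p = 0.000761), Pgk1 (0.68 ± 0.17, 0.00497) and Pfkl (0.46 ± 0.16, 0.0422) passed, against 20.2% of all genes. None of these M2 interactions passed when the batch 2 libraries were added (0 of 10, with 180 genes passing of 13723), and that of Pfkl then changed sign to -0.17. In Mφ, 3 of the 6 remained, those of Slc2a1, Gpi1 and Pfkl, and with batch as a covariate those of Slc2a1 and Gpi1. The 18 libraries left the 6 in Mφ, and in M2 gave Ldha and Pgk1 as positive and Slc2a1 (-0.46, adjusted p = 0.000536) and Pkm (-0.26, 0.00889) as negative, with Pfkl lost (0.0747).

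The interactions nearest to the threshold depended on individual libraries. Ldha in Mφ was lost without any 1 of 14 libraries (replicates 2 and 3 of TRAP1 KO Mφ, any WT Mφ and 1 of TRAP1 KO M2 in MPNST-CM, 1 and 3 of TRAP1 KO Mφ, any WT Mφ and any WT M2 in control medium, adjusted p up to 0.127). Pfkl in M2 was lost without any 1 of 10 (replicate 2 of TRAP1 KO Mφ, 1 and 3 of TRAP1 KO M2 and of WT M2 in MPNST-CM, 1 and 3 of TRAP1 KO M2 and any WT M2 in control medium, up to 0.158), and with DESeq2 (0.0841), median-of-ratios factors, total counts, no filter or the M2 groups alone. Slc2a1 in M2 (-0.35 ± 0.15, adjusted p = 0.0922) was gained without replicate 1 of WT M2 in MPNST-CM (0.0387), without the filter and with the M2 groups alone.

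IL-4 was compared with no IL-4 within each medium and genotype. The M2 cells had an additional 24 h with IL-4 in complete RPMI before the exposure. In control medium 8 transcripts rose and Pfkl fell in WT, and 7 rose in TRAP1 KO, against 37.2% and 28.5% of all genes passing and 19.1% and 15.6% passing as higher, while 18.1% and 12.9% passed as lower. The libraries of 9 members in WT and 7 in TRAP1 KO did not overlap, against 51.7% and 40.7% of all genes. Slc2a1 rose by a fold of 3.01 in WT (log2 fold change 1.59 ± 0.11, adjusted p = 3.23e-12) and 2.85 in TRAP1 KO (1.51 ± 0.11, 1.45e-11). Hk2 rose by folds of 2.16 (1.11 ± 0.10) and 1.63 (0.71 ± 0.10), and Pgam1 by 1.68 in both genotypes, with 18.2, 21.5 and 21.3 CPM in WT Mφ and 30.9, 33.5 and 37.8 in WT M2. Pfkl was 18.03, 22.8 and 19.9 CPM in WT Mφ and 14.1, 15.3 and 15.7 in WT M2, without overlap (-0.43 ± 0.12, adjusted p = 0.00448), whereas in TRAP1 KO it had -0.12 ± 0.12 (0.476). The fall of Pfkl in WT was lost with all 27 libraries (adjusted p = 0.0958, and 0.172 with batch as a covariate). The median over the 10 was 0.41 in WT and 0.34 in TRAP1 KO, against -0.03 over all genes in each. With total counts as the scale, Gpi1, Aldoa, Pgk1 and Pkm lost the call in WT (4 higher and 1 lower), and TRAP1 KO had 5 higher and 1 lower. Summed osteoclast markers (Acp5, Ctsk, Calcr and Dcstamp) were 32.4 to 37.3 CPM in WT Mφ and 523 to 561 in WT M2 in control medium, with 3 of 4 passing as higher. Dcstamp alone reached 468 CPM, and Calcr was at 0 in 23 of the 24 libraries. Proliferation markers were lower in WT M2 with 5 of 5 passing. The part of either set of markers was not tested.

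The call of Pgk1 in WT (0.32 ± 0.12, adjusted p = 0.0376) was lost without any 1 of 8 libraries (replicates 1 and 3 of WT Mφ in control medium, 1 of WT M2 in MPNST-CM, 3 and 4 of WT M2 and any TRAP1 KO M2 in control medium, up to 0.221), with DESeq2, no filter, the 2 groups alone or all 27 libraries (0.234), and in the 18 libraries (0.122). Ldha in TRAP1 KO (0.28 ± 0.11, adjusted p = 0.0484) was lost without any 1 of 15 (0.0508 to 0.198), namely replicate 3 of TRAP1 KO Mφ, 2 and 3 of WT Mφ, 1 of TRAP1 KO M2 and 3 of WT M2 in MPNST-CM, and 1 and 3 of TRAP1 KO Mφ, 1 and 2 of TRAP1 KO M2, any WT Mφ and any WT M2 in control medium. It was also lost with all 27 libraries (0.0895) and in the 18 libraries (0.115). No member passed the test of the difference between the IL-4 effects of TRAP1 KO and WT in control medium with edgeR or with DESeq2, although 2 of 10, Hk2 (-0.40 ± 0.14) and Ldha (-0.42 ± 0.15), had an unadjusted p under 0.05, and 7.08% of all genes passed. Ldha passed when the 4 groups in control medium were fitted alone (adjusted p = 0.0435), and in the 18 libraries both Hk2 (-0.48, 0.00263) and Ldha (-0.50, 0.00528) did.

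M2 and Mφ were also compared in MPNST-CM. The difference of the IL-4 effect between media is the WT test given above, and in TRAP1 KO it was not tested. In WT, Slc2a1 was higher in M2 than in Mφ (0.90 ± 0.11, adjusted p = 2.47e-07), while Pkm (-0.48 ± 0.09, 0.000124) and Gapdh (-1.35 ± 0.31, 0.00180) were lower, and 24.9% of all genes passed, 11.9% as higher and 13% as lower. In TRAP1 KO, 7 were lower in M2 and none higher, against 11.2% of all genes passing and 4.47% passing as lower and 6.71% as higher. The libraries of 3 members in WT and 8 in TRAP1 KO did not overlap, against 35.1% and 27.7% of all genes. The 7 were Gapdh, Pkm (-0.50 ± 0.09), Pfkl (-0.49 ± 0.10), Aldoa (-0.47 ± 0.07), Gpi1 (-0.47 ± 0.08), Hk2 (-0.42 ± 0.10) and Pgk1 (-0.39 ± 0.11). Total counts gave 1 higher and 4 lower in WT, adding Pfkl and Aldoa, and Aldoa was also gained without replicate 2 of WT Mφ in MPNST-CM (-0.22, adjusted p = 0.0416). In TRAP1 KO the call of Pgk1 (adjusted p = 0.0241) was lost without replicate 2 or 3 of TRAP1 KO Mφ or any TRAP1 KO M2 in MPNST-CM (0.0529 to 0.110), and Hk2 and Pfkl were lost with all 27 libraries (0.465 and 0.114). Slc2a1 (-0.32, adjusted p = 0.00136) and Ldha (-0.30, 0.00469) were added as lower in TRAP1 KO in the 18 libraries, which left the 3 calls of WT as they were. Summed IL-4 markers (Arg1, Retnla, Chil3, Mrc1, Ccl24 and Mgl2) were 717 to 751 CPM in WT Mφ and 3178 to 3219.6 in WT M2 in control medium. In MPNST-CM the sums were 1173 to 1350 in WT Mφ, 2555 to 2675 in TRAP1 KO Mφ and 4139 to 4624 in TRAP1 KO M2. Mrc1 alone ranged from 516 to 3769 CPM, and the 6 markers did not move as a set. With MPNST-CM, 2 rose in WT Mφ, 3 rose and 1 fell in TRAP1 KO Mφ, and 3 rose and 3 fell in each genotype of M2. In these comparisons 21.2%, 32.9%, 24.5% and 36.8% of all genes passed.

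**Figure D4:**
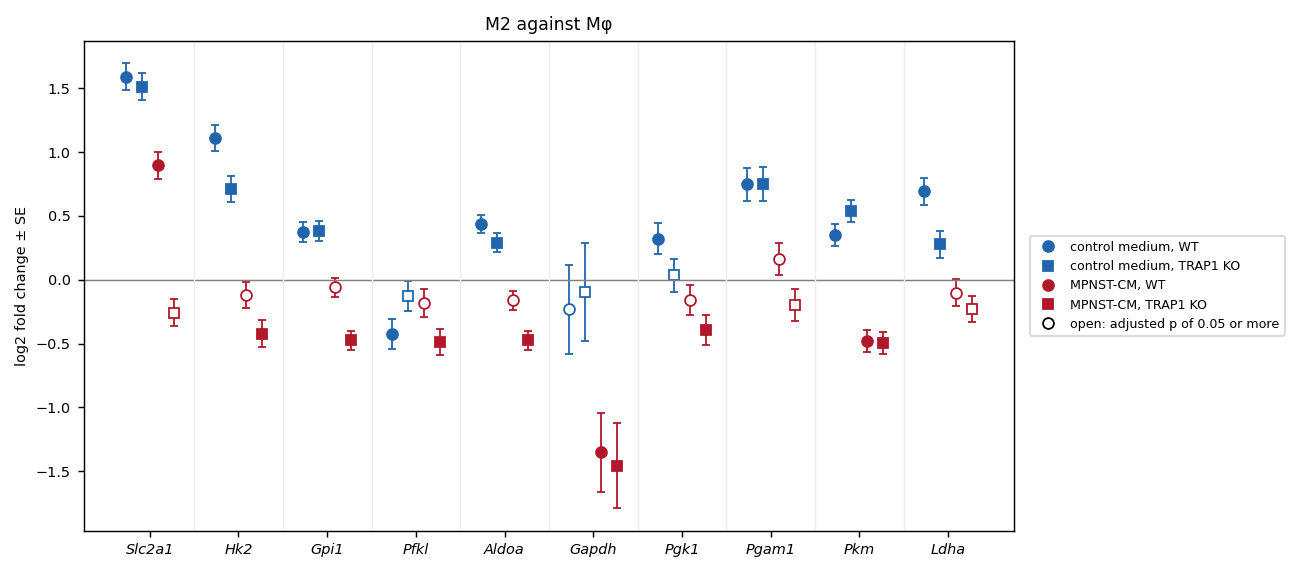
Log2 fold change of M2 against Mφ for each transcript, with SE from the fit of 24 libraries, in control medium (blue) and MPNST-CM (red), WT (circles) and TRAP1 KO (squares). Filled symbols passed the test. The blue symbols of Slc2a1, Hk2, Gpi1, Aldoa, Pgam1, Pkm and Ldha are filled and above 0 in both genotypes, and no red symbol of TRAP1 KO is above 0.

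The rest of the pathway was read from lists of genes. Of 27 other glycolytic enzymes and glucose transporters, 16 could be tested, and in MPNST-CM 7 rose and 2 fell in WT Mφ, 5 rose and 2 fell in TRAP1 KO Mφ, 2 rose and 3 fell in WT M2, and 3 rose and 4 fell in TRAP1 KO M2. The shares of all genes passing in these comparisons were 21.2%, 32.9%, 24.5% and 36.8%. The medians of the 16 genes were 0.32, 0.03, 0.12 and 0.05 on the log2 scale. Tpi1, triosephosphate isomerase, went from 105 ± 6.39 to 156 ± 8.84 CPM in WT Mφ and from 103 ± 7.37 to 234 ± 15.2 in TRAP1 KO Mφ, with an interaction of 0.62 ± 0.11 (adjusted p = 0.000124). The platelet-type phosphofructokinase Pfkp fell from 175 ± 3.61 to 76.6 ± 1.22 CPM in WT M2 (-1.19 ± 0.08, adjusted p = 2.61e-12) and rose from 62.8 ± 1.13 to 129.6 ± 9.52 in TRAP1 KO Mφ (1.05 ± 0.08). Slc2a6, a transporter of lysosomal membranes, had 42.6 ± 3.87 CPM in control medium and 33.9 ± 1.12 in MPNST-CM in WT Mφ and fell from 97.7 ± 3.93 to 40.8 ± 2.18 in WT M2 (-1.26 ± 0.10). In TRAP1 KO it fell from 65.1 ± 2.18 to 11.7 ± 2.11 CPM in Mφ (-2.48 ± 0.12) and from 89.3 ± 10.4 to 6.26 ± 0.245 in M2 (-3.83 ± 0.12, adjusted p = 7.60e-19), with interactions of -2.15 ± 0.16 and -2.57 ± 0.16. Aldoc, the aldolase C gene, rose in both WT cell states, from 48.4 ± 4.62 to 79.3 ± 8.80 CPM in Mφ and from 18.6 ± 1.33 to 51.9 ± 6.70 in M2.

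Of 22 tested regulators of glycolytic flux, lactate export and pyruvate entry, 6 rose and 3 fell with MPNST-CM in WT Mφ and 7 rose and 3 fell in TRAP1 KO Mφ, against the 21.2% and 32.9% of all genes. Slc16a3, the lactate exporter MCT4, rose in all 4 cell states. It went from 28.4 ± 2.91 to 58.0 ± 2.76 CPM in WT Mφ and from 28.0 ± 3.27 to 208 ± 3.98 in TRAP1 KO Mφ (log2 fold changes 1.03 ± 0.10 and 2.89 ± 0.10), with an interaction of 1.86 ± 0.14 (adjusted p = 7.00e-11). Slc16a1, the transporter MCT1, was instead 20.5 ± 4.23 CPM in WT and 6.53 ± 0.712 in TRAP1 KO Mφ in MPNST-CM (-1.65 ± 0.16). Txnip, an inhibitor of glucose uptake, fell in WT Mφ from 769.7 ± 61.2 to 455 ± 81.4 CPM (-0.76 ± 0.12) and rose in TRAP1 KO Mφ from 931 ± 36.3 to 1743 ± 79.8 (0.91 ± 0.12), with an interaction of 1.66 ± 0.18 (adjusted p = 9.24e-08). Pdk1, the kinase that closes pyruvate dehydrogenase, rose from 39.5 ± 3.59 to 75.5 ± 12.3 CPM in TRAP1 KO Mφ.

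The regulators known to act on glycolysis genes were tested for 10 of 13. Hif1a, the oxygen-regulated subunit of HIF-1, rose in all 4 cell states, by 0.59 ± 0.09 in WT Mφ, 1.07 ± 0.09 in TRAP1 KO Mφ, 0.34 ± 0.09 in WT M2 and 1.14 ± 0.09 in TRAP1 KO M2 on the log2 scale. In TRAP1 KO Mφ it went from 49.8 ± 3.62 to 104 ± 6.92 CPM. Egln3, a prolyl hydroxylase that marks HIF subunits for degradation and is itself a textbook HIF target, went from 1.00 ± 0.727 to 19.6 ± 1.54 CPM in TRAP1 KO Mφ and from 0.525 ± 0.118 to 2.37 ± 0.199 in WT Mφ. Egln1, the main such hydroxylase, rose in TRAP1 KO Mφ from 41.1 ± 6.96 to 89.0 ± 4.18 CPM (1.11 ± 0.12). These are transcript levels, and HIF-1α protein was not part of these data. Myc was 24.8 ± 2.82 CPM in WT M2 in control medium and 7.71 ± 4.39 in TRAP1 KO M2 (-1.69 ± 0.41, adjusted p = 0.00720).

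In the branches off glycolysis, 12 tested genes of gluconeogenesis and glycogen showed 8 higher and 2 lower with MPNST-CM in TRAP1 KO Mφ, and 2 higher and 3 lower in WT Mφ, where 32.9% and 21.2% of all genes passed. The difference between these counts was not tested. Gys1, muscle-type glycogen synthase, went from 13.4 ± 1.64 to 29.9 ± 0.644 CPM in TRAP1 KO Mφ (1.16 ± 0.14). Pck2, mitochondrial PEP carboxykinase, went from 28.0 ± 0.763 to 76.4 ± 4.42 CPM in TRAP1 KO M2 (1.45 ± 0.10) and fell in WT Mφ from 47.9 ± 5.26 to 34.1 ± 2.52 (-0.49 ± 0.10). All 8 genes of the pentose phosphate pathway were tested, and 3 rose in WT M2 against WT Mφ in control medium while none fell, against 37.2% of all genes passing, 19.1% as higher. Tkt, transketolase, was 425 ± 26.0 CPM there against 220.1 ± 25.9, and in TRAP1 KO M2 it fell from 435 ± 14.9 to 168 ± 20.9 in MPNST-CM (-1.37 ± 0.12, adjusted p = 8.65e-10). Of 9 transcripts often used as references, 3 passed between media in WT Mφ and 3 in TRAP1 KO Mφ, beside 21.2% and 32.9% of all genes, among them Tubb5, which rose in WT (0.59 ± 0.13) and fell in TRAP1 KO (-0.62 ± 0.13). Rplp0 passed in neither, with group means between 351 and 455 CPM over the 8 groups.

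The 10 transcripts did not vary as a block. Over the 24 libraries, Pearson's r of log2 CPM between 2 members had a median of 0.60 over the 45 pairs, from -0.51 for Hk2 and Pfkl to 0.94 for Gpi1 and Aldoa, as a description of libraries that share groups and scaling factors. The mean of the 10 standardized log2 CPM had a median of -1.25 in TRAP1 KO Mφ in control medium, the lowest group, and 1.06 in the same cells in MPNST-CM, the highest. WT Mφ went from -0.85 to 0.63, whereas WT M2 had 0.37 and 0.36 in control medium and MPNST-CM, and TRAP1 KO M2 had -0.31 and 0.09. Among 8196 other genes with a mean of at least 10 CPM, the 5 whose log2 CPM was most like this mean were Tagln2 (r = 0.921), Fam162a (0.891), S100a10 (0.883), Bcl2 (0.881) and Gda (0.878). Tagln2, which encodes the actin-binding transgelin 2, ranged from 389.8 CPM in TRAP1 KO Mφ in control medium to 1014 in MPNST-CM. Gda, guanine deaminase, went from 15.9 to 101 CPM between the same groups and was highest in WT M2 in MPNST-CM, at 108.9.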

How the data were processed

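RNA of mouse bone marrow-derived macrophages was sequenced as single-end 3′ libraries. Per the labels and the study's methods, the authors trimmed reads with Trimmomatic (window of 4 bases, quality 20), checked them with FastQC, aligned them with HISAT2, kept reads with a mapping quality of at least 20 with SAMtools and counted them per gene with featureCounts. The deposited values are whole raw counts of 50559 genes, not normalized. The build is named mm39 with the counts and mm10 in the methods, so no gene coordinates were taken from it. Promoter windows are from RefSeq GRCm38.p6. The table also holds 5 columns that match no described sample, which were not used.

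Groups came from the sample labels. The 24 libraries of batch 1 (7037684 to 9089792 counts) entered 1 fit with a mean per group, made in R 4.3.3 with edgeR 4.0.16 and limma 3.58.1, using TMM factors, the default filter on low counts (13614 genes kept) and the robust quasi-likelihood test. All p-values were adjusted over these 13614 genes by Benjamini-Hochberg, with a threshold of 0.05, and tests were two-sided. SE is the log2 fold change divided by the square root of F. Counts limit the precision most for Gapdh. No libraries of a group agreed within sampling noise (24 pairs, at least 2.11 chi-square per degree of freedom). A library was taken to stand apart where this value to both others of its group was over 2 times that between those. The procedure was tested on simulated counts. Python 3.11.15, pandas 2.3.3 and matplotlib 3.10.9 made tables and figures.

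The 10 genes and the lists were chosen with earlier results of these data known. Named were all 10 genes, up to 3 genes of each list and comparison with the largest log2 fold change among those past the threshold and at 10 CPM or more, the 5 genes most like the 10, Trap1 and Xist. Copies of the 10 were named where their symbol was that of the gene with -ps or -rs. Log2 CPM for correlations used a prior count of 2. Alternatives were all 27 libraries, also with batch as a covariate, median-of-ratios factors, total counts, no filter, DESeq2 1.42.0, a block for the replicate number, fits of the compared groups by themselves and leaving out each library. Leaving out the 6 libraries that stood apart was added after seeing the data.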

Additional observations from a re-analysis of the deposited data

Results flagged for a closer look

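In the 3 groups with a library from batch 2, the libraries of each group were searched for an outlier in each of the 10 transcripts by Dixon's criterion, on the CPM scale of all 27 libraries. An outlier was found in 6 of 30 such sets, each time the library of batch 2. By chance 1.5 would be expected for any library of a set if the sets were independent. The sets share the 3 libraries of batch 2, so this number does not apply to them. In the library labelled TRAP1 KO M2 in control medium, Gpi1 had 238 CPM (158 to 171 in the others), Pfkl 35.9 (14.2 to 17.2), Aldoa 664 (506 to 511) and Pkm 757 (576 to 595). In that labelled TRAP1 KO M2 in MPNST-CM, Hk2 had 80.7 CPM (47.4 to 50.5) and Pgk1 16.2 (23.9 to 25.2). These are the libraries that resembled other groups across all genes and had Xist, and the source of the differences was not tested.

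The response to MPNST-CM differed between groups in 16 tests of the difference itself, with 10 transcripts tested in each comparison. Of all genes, 19.7% passed for genotype by medium in Mφ, 20.2% in M2 and 12.1% for IL-4 by medium in WT. TRAP1 KO minus WT Mφ gave differences of log2 changes of 0.72 for Slc2a1, 0.59 for Gpi1, 1.07 for Pfkl, 0.39 for Aldoa, 0.63 for Pgk1 and 0.42 for Ldha. Those of Aldoa, Pgk1 and Ldha did not pass with all 27 libraries, and that of Ldha was lost without any 1 of 14 libraries. TRAP1 KO minus WT M2 gave 0.46 for Pfkl, 0.68 for Pgk1 and 0.71 for Ldha. None of these M2 values passed with all 27 libraries, where that of Pfkl turned to -0.17. M2 minus Mφ in WT gave -0.69 for Slc2a1, -1.23 for Hk2, -0.43 for Gpi1, -0.60 for Aldoa, -0.58 for Pgam1, -0.83 for Pkm and -0.79 for Ldha. Of these, Slc2a1, Gpi1, Aldoa and Pgam1 did not pass with all 27 libraries.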

How the results depend on the processing

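The batch 2 libraries moved the counts most. With all 27 libraries, the number of the 10 transcripts past the threshold was 2 for MPNST-CM in WT M2, 2 for TRAP1 KO against WT in M2 in MPNST-CM, 3 and 0 for genotype by medium in Mφ and M2, and 3 for IL-4 by medium in WT. Adding batch as a covariate gave 2, 2, 2, 0 and 4, and 2 for TRAP1 KO against WT in M2 in control medium. The genotype by medium value of Pfkl in M2 turned to -0.17 and, with batch, to -0.080. Over all genes, those past the threshold for MPNST-CM in WT Mφ went from 2889 to 958. Total counts shifted the median of all genes by up to -0.31 (M2 against Mφ in WT in control medium) and gave 8 for MPNST-CM in TRAP1 KO M2, 5 for TRAP1 KO against WT in Mφ in control medium, and 5 and 5 for M2 against Mφ in WT in control medium and in MPNST-CM. DESeq2 gave 2 for TRAP1 KO against WT in Mφ in control medium. The cause of the changes was not tested. Of 160 values per setting, 153 with DESeq2, 157 with median-of-ratios factors, 151 without the filter and 149 with the compared groups alone kept their side of the threshold. Fewer did so with all 27 libraries (135), with batch as a covariate (134), with total counts (136) and in the 18 libraries (142).

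Leaving out 1 library gave 9 to 10 for MPNST-CM in WT and in TRAP1 KO Mφ, 3 to 4 in WT M2 and 5 to 6 in TRAP1 KO M2. For TRAP1 KO against WT it gave 1 and 5 to 7 in Mφ and 3 to 5 and 4 in M2 (control medium, then MPNST-CM). For M2 against Mφ it gave 8 to 9 and 3 to 4 in WT and 6 to 7 in both media in TRAP1 KO. The interactions had 5 to 6, 2 to 3, 0 and 6 to 8. Leaving out the 6 libraries that stood apart ended 5 calls and added 13 among the 160 values and moved genotype by IL-4 in control medium to 2. The correlation of deviations between groups had a mean of 0.107 over 77 pairs of same-numbered libraries (34 over 0.1) and -0.0451 over 175 pairs of other numbers (30 over 0.1). Not every same-numbered pair exceeded 0.1 and the labels do not tie a number to a shared animal or day, so the numbers were not taken to pair the samples. The mean was nevertheless higher for same numbers, and replicate 1 stood apart in all 4 Mφ groups and in WT M2 in MPNST-CM. Whether libraries of the same number share a source was not tested. With the replicate number as a block, 1 transcript (Hk2) passed for genotype by IL-4 in control medium (adjusted p = 0.0477), as 1 (Ldha) did with the compared groups alone. The block ended 4 calls, those of Slc2a1 for MPNST-CM in WT M2 (0.0636), Pgk1 for M2 against Mφ in WT in control medium (0.246), Pfkl for genotype by medium in M2 (0.1003) and Pgam1 for IL-4 by medium (0.0985). Besides Hk2 above, the block added Hk2 for MPNST-CM in WT and TRAP1 KO Mφ (0.0421 and 0.0470), Pkm for MPNST-CM in TRAP1 KO M2 (0.0467), Aldoa for TRAP1 KO against WT in M2 in control medium (0.0164), and Slc2a1 and Aldoa for genotype by medium in M2 (0.0222 and 0.0494). In batch 1, WT M2 in control medium is numbered 2 to 4 and every other group 1 to 3. Replicate 4 of that group therefore had a block term of its own and did not inform the group mean. All 4 ended calls use this group, as do several of the added ones. For these, the loss of a library and an effect of the number cannot be told apart. Counts of at most 78 per library limit what can be said of Gapdh.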
